A study of Mus musculus with 18 samples.

Results

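The genes described here are the kinases and regulators of the integrated stress response in mouse cerebellum. They were chosen by their known role as a list of 10 gene symbols, *Eif2ak1*, *Eif2ak2*, *Eif2ak3*, *Eif2ak4*, *Atf4*, *Atf3*, *Ddit3*, *Trib3*, *Ppp1r15a* and *Ppp1r15b*, out of 54752 genes in the RNA files and 22523 in the footprint files. All 10 were found in both kinds of file, under 11 gene IDs, since *Ddit3* has a separate ID for the upstream open reading frame (uORF) in its leader.

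RNA sequencing and ribosome profiling, which counts mRNA fragments shielded by ribosomes (footprints), were performed on cerebella of 3-week-old mice. Each assay covered 3 mice of each of 3 genotypes on the C57BL/6J (B6J) strain, which gave 18 libraries. The controls were wildtype B6J mice. The other genotypes were B6J.*Gtpbp1*-/-, in which a selection cassette takes up part of the gene, and B6J-*Gtpbp2*-/-, which carries the ENU-induced point mutation *nmf205*, while the former line was made congenic by backcross. These are called the *Gtpbp1* mutant and the *Gtpbp2* mutant here. Mice of all 3 groups carry the B6J mutation in *n-Tr20*, a gene for a tRNA that decodes AGA codons and is expressed in the nervous system, so none of the groups has a full supply of this tRNA. Per the labels, RNA libraries formed batch 1 and footprint libraries batch 2, so assay and batch cannot be told apart.

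The integrated stress response starts when a kinase phosphorylates the alpha subunit of the initiation factor eIF2, which slows the start of translation on most mRNAs and lets ribosomes reach the coding sequence of a few mRNAs that carry uORFs. The transcription factor ATF4 is made in this way and switches on genes for amino acid supply, further transcription factors and feedback regulators, among them the phosphatase subunit that removes the phosphate again. In neurons the pathway is known for its part in protein synthesis, memory and degeneration.

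RNA libraries held 49090501, 50301391 and 52114400 estimated counts in B6J, 44243134, 49294194 and 37794598 in the *Gtpbp1* mutants and 46027009, 50878852 and 51979679 in the *Gtpbp2* mutants. Footprint libraries held 4428395, 4489970 and 6523974 counts in B6J, 7054063, 8612441 and 5944024 in the *Gtpbp1* mutants and 6281637, 3630823 and 10442573 in the *Gtpbp2* mutants. Levels are given as CPM, the count scaled to the library total, with totals adjusted by the trimmed mean of M values (TMM) over the 9 libraries of an assay, and in the order of replicates 1, 2 and 3. Differences are log2 fold changes with their 95% confidence interval (CI) from edgeR, and a gene was called when its p, adjusted over all genes tested, was at most 0.05. Both mutants share the same 3 B6J controls in each assay, so their values are given side by side.

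The targeted genes served as a check of the genotype labels. *Gtpbp1* RNA stood at 71.0, 77.8 and 66.7 CPM in B6J, at 44.0, 41.7 and 43.9 in the *Gtpbp1* mutants and at 58.7, 72.2 and 65.7 in the *Gtpbp2* mutants. The 3 *Gtpbp1* mutants lay below all other libraries, with a log2 fold change of -0.73 against B6J (adjusted p 5.94e-05), and counts were taken over all exons, of which the allele keeps most. Footprints on *Gtpbp1* fell by 1.57 on the log2 scale (adjusted p 0.00676, lower in 3 of 3 mutants). *Gtpbp2* RNA in the *Gtpbp2* mutants stood at 65.5, 75.4 and 72.7 CPM, against 85.9, 74.0 and 88.1 in B6J, and the groups overlapped. In the *Gtpbp1* mutants it stood at 109, 100.5 and 104 CPM, above both other groups, with log2 fold changes of 0.34 against B6J (adjusted p 0.0154) and 0.55 against the *Gtpbp2* mutants (adjusted p 0.036). The log2 fold change in the *Gtpbp2* mutants was -0.22 (CI -0.42 to -0.01, adjusted p 0.19), which does not speak to the label, since a point mutation need not lower counts. Footprints on *Gtpbp2* were 28.9, 26.4 and 7.54 CPM in the *Gtpbp2* mutants, below 44.8, 36.1 and 38.5 in B6J, with a log2 fold change of -0.97 (CI -1.99 to 0.06, adjusted p 0.321).

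Sex, read from counts of the Y-linked gene *Ddx3y*, was not balanced. In RNA, B6J replicate 2 and *Gtpbp1* mutant replicates 1 and 2 were male. In footprints, B6J replicates 1 and 2 and *Gtpbp1* mutant replicate 1 were male. All 6 libraries of the *Gtpbp2* mutants were female, so the B6J males have no counterpart there. The tissue label was read against markers of cerebellar neurons: summed RNA of 5 granule neuron markers was 2282 CPM or more in all 9 libraries, and that of 4 Purkinje cell markers 2745 CPM or more.

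In RNA, 6 of the 10 genes were called higher in the *Gtpbp1* mutants, where 5.90% of all 24577 genes tested were called higher. The same 6, *Eif2ak2*, *Atf4*, *Atf3*, *Ddit3*, *Trib3* and *Ppp1r15a*, were called higher in the *Gtpbp2* mutants, where 3.61% of 24859 genes were. In either mutant 0 were called lower by edgeR, 0 were lower at an unadjusted p under 0.05 and 0 by DESeq2. All 3 mutant libraries lay above all 3 B6J libraries for 7 of the 10 genes in each mutant, the 6 above and *Ppp1r15b*, against 16.0% of all genes for the *Gtpbp1* mutants and 14.5% for the *Gtpbp2* mutants. The median log2 fold change of the 10 genes was 0.66 in the *Gtpbp1* mutants and 0.55 in the *Gtpbp2* mutants, beside 0.03 and 0.03 over all genes tested. The mitochondrial share of RNA counts was 5.93%, 5.61% and 6.18% in the B6J libraries. It was lower, without overlap, in the mutants, at 4.42%, 4.99% and 4.56% (*Gtpbp1*) and 5.01%, 4.8% and 5.04% (*Gtpbp2*). Its part in these calls was not tested.

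In footprints, 2 of the 10 genes, *Atf4* and *Ddit3*, were called higher in the *Gtpbp1* mutants, against 0.573% of all 13956 genes tested, and 4 had all 3 mutants above all B6J libraries, against 9.0%. In the *Gtpbp2* mutants 3 were called higher, *Atf4*, *Trib3* and *Ppp1r15a*, against 1.28% of 13797 genes, and 5 had all 3 mutants above B6J, against 11%. Both numbers include *Trib3*, which had 2, 10 and 1 counts in B6J. It met the filter of 5 counts in 3 or more of 6 libraries only through the mutants. With DESeq2, 4 and 5 of the 10 genes were called higher, among 251 and 300 of all genes. For the *Gtpbp1* mutants, the count was 0 without *Gtpbp1* mutant replicate 1 or without B6J replicate 1, and 1 without *Gtpbp1* mutant replicate 3 or without B6J replicate 3. Over all genes, 31 of 13730, 18 of 13866, 115 of 13736 and 89 of 13844 were then called higher, in this order. With all libraries, 80 of 13956 were. For the *Gtpbp2* mutants, the count of the 10 genes was 1 without *Gtpbp2* mutant replicate 1 or without B6J replicate 1. There 55 of 13606 and 101 of 13689 of all genes were called higher, against 176 of 13797 with all libraries. The median log2 fold change in footprints was 0.96 and 0.92, beside 0.01 and 0.01 over all genes.

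Translational efficiency (TE) is the change in footprints beyond the change in RNA, tested as an interaction of assay and genotype over the 12 libraries of a pair of genotypes. In the *Gtpbp1* mutants edgeR called 0 of the 10 genes, against 0% of 13086 genes tested, while 3 had an unadjusted p under 0.05, as did 1170 of all genes, and DESeq2 called 1, among 58 of all genes. In the *Gtpbp2* mutants it called 0 of 10, against 0.00773% of 12931 genes, with 4 at an unadjusted p under 0.05, as were 1554 of all genes, and 1 called by DESeq2, among 160. *Trib3*, which met the count filter through the mutants, is among the 3 and the 4, and is the gene DESeq2 called in the *Gtpbp1* mutants. The *Gtpbp2* count became 1 without B6J footprint replicate 3, through *Ppp1r15a*, where 158 of 12773 genes (1.24%) were called. Without the same library, the *Gtpbp1* count stayed 0, where 174 of 12989 genes (1.34%) were called. The median TE change of the 10 genes was -0.02 and -0.08, beside 0.03 and 0.03 over all genes.

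The mutants were also compared directly. In RNA, edgeR called 0 of the 10 genes, against 0.0595% of 25190 genes, with 0 at an unadjusted p under 0.05 and 0 by DESeq2. In footprints it called 0, against 0% of 14142 genes, with 2 at an unadjusted p under 0.05 (*Eif2ak4* and *Trib3*), among 1523 of all genes, and 0 by DESeq2. For TE it called 0, against 0% of 13292 genes, and DESeq2 called 0. The same 2 genes had an unadjusted p under 0.05 for TE, among 1483 of all genes. Without *Gtpbp2* mutant footprint replicate 3, edgeR called 177 of 13070 genes for TE (1.35%) and 0 of the 10. DESeq2 called 46 of all genes in RNA, 100 in footprints and 155 for TE. These values do not show that the mutants are alike.

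**Figure D1:**
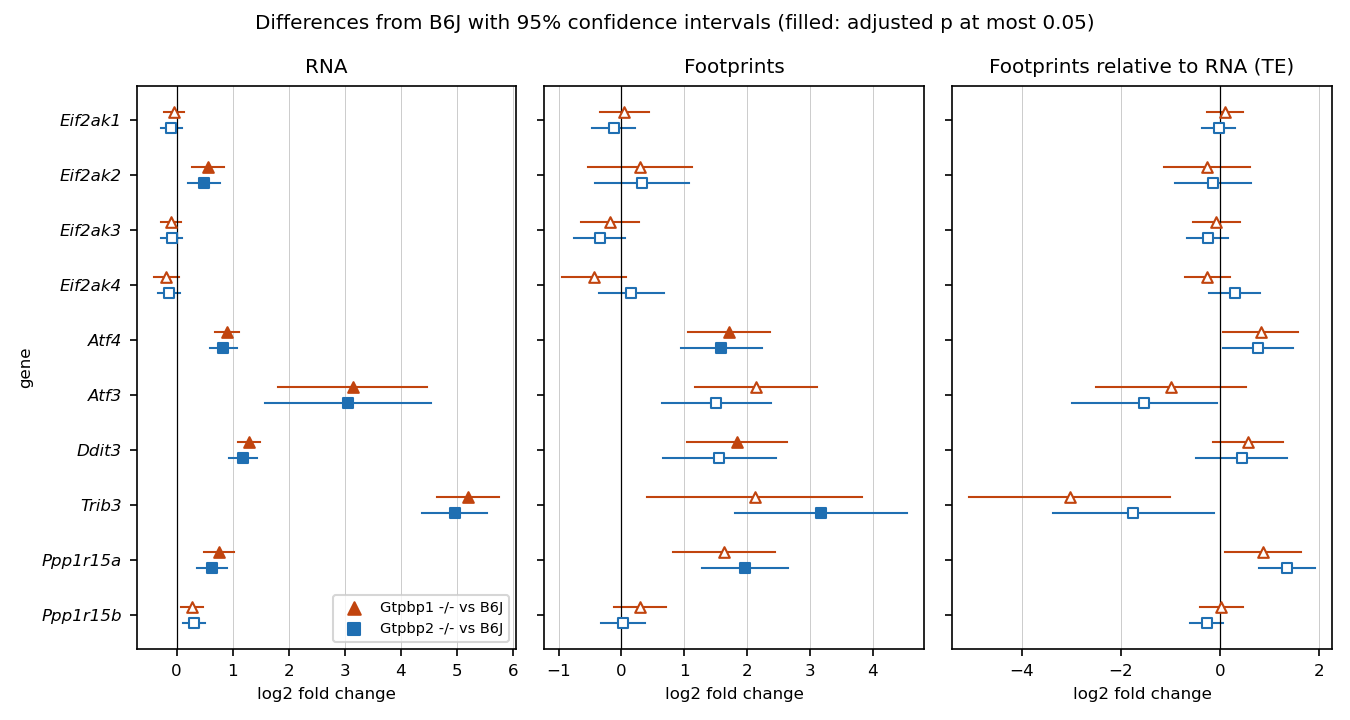
Log2 fold change of each of the 10 genes against B6J in RNA, footprints and TE, with lines for the 95% CI and filled symbols for an adjusted p of at most 0.05, by mutant. RNA changes run from -0.18 for *Eif2ak4* to 5.20 for *Trib3* in the *Gtpbp1* mutants, and no TE symbol is filled.

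Of the 4 kinases that phosphorylate eIF2 alpha, *Eif2ak1* encodes HRI, which responds to a lack of heme and to mitochondrial stress. Its RNA was between 73.1 and 87.7 CPM in all 9 libraries, and the groups overlapped. The log2 fold change was -0.05 (CI -0.22 to 0.13) in the *Gtpbp1* mutants and -0.09 (CI -0.27 to 0.09) in the *Gtpbp2* mutants, and the first is 0.0049 with upper-quartile scaling. Its footprints, with means of 76.3, 78.7 and 70.5 CPM in B6J, *Gtpbp1* and *Gtpbp2* mutants, overlapped too, with log2 fold changes of 0.05 (CI -0.34 to 0.43) and -0.12 (CI -0.46 to 0.22). Directly compared, the mutants differed by 0.05 (CI -0.11 to 0.20) in RNA and 0.16 (CI -0.21 to 0.52) in footprints.

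*Eif2ak3* encodes PERK, the kinase in the membrane of the endoplasmic reticulum that responds to unfolded protein there. Its RNA means were 44.5, 41.6 and 41.9 CPM in B6J, *Gtpbp1* and *Gtpbp2* mutants, and its footprint means 49.6, 43.7 and 39.1, with overlap in both assays. RNA log2 fold changes were -0.10 (CI -0.28 to 0.08) and -0.09 (CI -0.27 to 0.10). Footprint log2 fold changes were -0.18 (CI -0.65 to 0.29) and -0.35 (CI -0.75 to 0.06). The second became 0.01 with sex as a covariate, a fit that sets the *Gtpbp2* mutants against B6J replicate 3 alone. Between the mutants the difference was -0.01 (CI -0.20 to 0.18) in RNA and 0.15 (CI -0.25 to 0.56) in footprints.

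*Eif2ak4* encodes GCN2, which responds to uncharged tRNA and to stalled ribosomes. Its RNA stood at 29.5, 31.4 and 29.4 CPM in B6J, at 23.5, 29.7 and 26.5 in the *Gtpbp1* mutants and at 27.5, 26.7 and 27.8 in the *Gtpbp2* mutants. The 3 *Gtpbp2* mutants lay below B6J, as they did for 14.1% of all genes tested, and *Gtpbp1* mutant replicate 2 lay within the B6J range. Neither change passed the threshold, at -0.18 (CI -0.41 to 0.04, adjusted p 0.304) and -0.14 (CI -0.34 to 0.06, adjusted p 0.414). Footprints were 24.4, 21.4 and 19.2 CPM in B6J, 14.4, 16.0 and 17.4 in the *Gtpbp1* mutants and 28.8, 27.5 and 17.2 in the *Gtpbp2* mutants. Here the *Gtpbp1* mutants lay below B6J without overlap, as they did for 8.80% of all genes tested. *Gtpbp2* mutant replicate 3 lay below B6J and its replicates 1 and 2 above. The log2 fold changes were -0.44 (CI -0.95 to 0.07, adjusted p 0.47) and 0.16 (CI -0.36 to 0.68, adjusted p 0.80), and the direct comparison gave -0.61 (CI -1.15 to -0.07, adjusted p 0.412), which did not pass.

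*Eif2ak2* encodes PKR, the kinase that binds double-stranded RNA and is itself induced by interferon. Its RNA stood at 16.8, 16.9 and 13.0 CPM in B6J, at 20.3, 25.6 and 22.8 in the *Gtpbp1* mutants and at 21.2, 23.2 and 20.8 in the *Gtpbp2* mutants. All 6 mutant libraries lay above the highest B6J library. It rose 1.47-fold in the *Gtpbp1* mutants, a log2 fold change of 0.56 (CI 0.28 to 0.84, adjusted p 0.012), and 1.40-fold in the *Gtpbp2* mutants, 0.48 (CI 0.20 to 0.77, adjusted p 0.0413). The direct comparison gave 0.07 (CI -0.17 to 0.32). The call in the *Gtpbp1* mutants was lost without *Gtpbp1* mutant replicate 2 (adjusted p 0.0887, the top of a range from 0.000242 over 14 alternatives). The call in the *Gtpbp2* mutants was lost when any of the 6 libraries was left out, with adjusted p of 0.057, 0.146 and 0.0937 without *Gtpbp2* mutant replicates 1, 2 and 3 and of 0.0778, 0.0768 and 0.077 without B6J replicates 1, 2 and 3. It was also lost with the transcript length offset (0.0779), in a range of 0.00649 to 0.146 over 14 alternatives. Footprints on *Eif2ak2* were 10.1, 5.95 and 9.85 CPM in B6J, 14.6, 11.9 and 5.18 in the *Gtpbp1* mutants and 13.4, 5.78 and 12.8 in the *Gtpbp2* mutants. The groups overlapped, the lowest library of each mutant lay below every B6J library, and the log2 fold changes were 0.30 (CI -0.54 to 1.13) and 0.32 (CI -0.43 to 1.07). A rise of the size seen in RNA lies inside both intervals, as does no change.

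**Figure D2:**
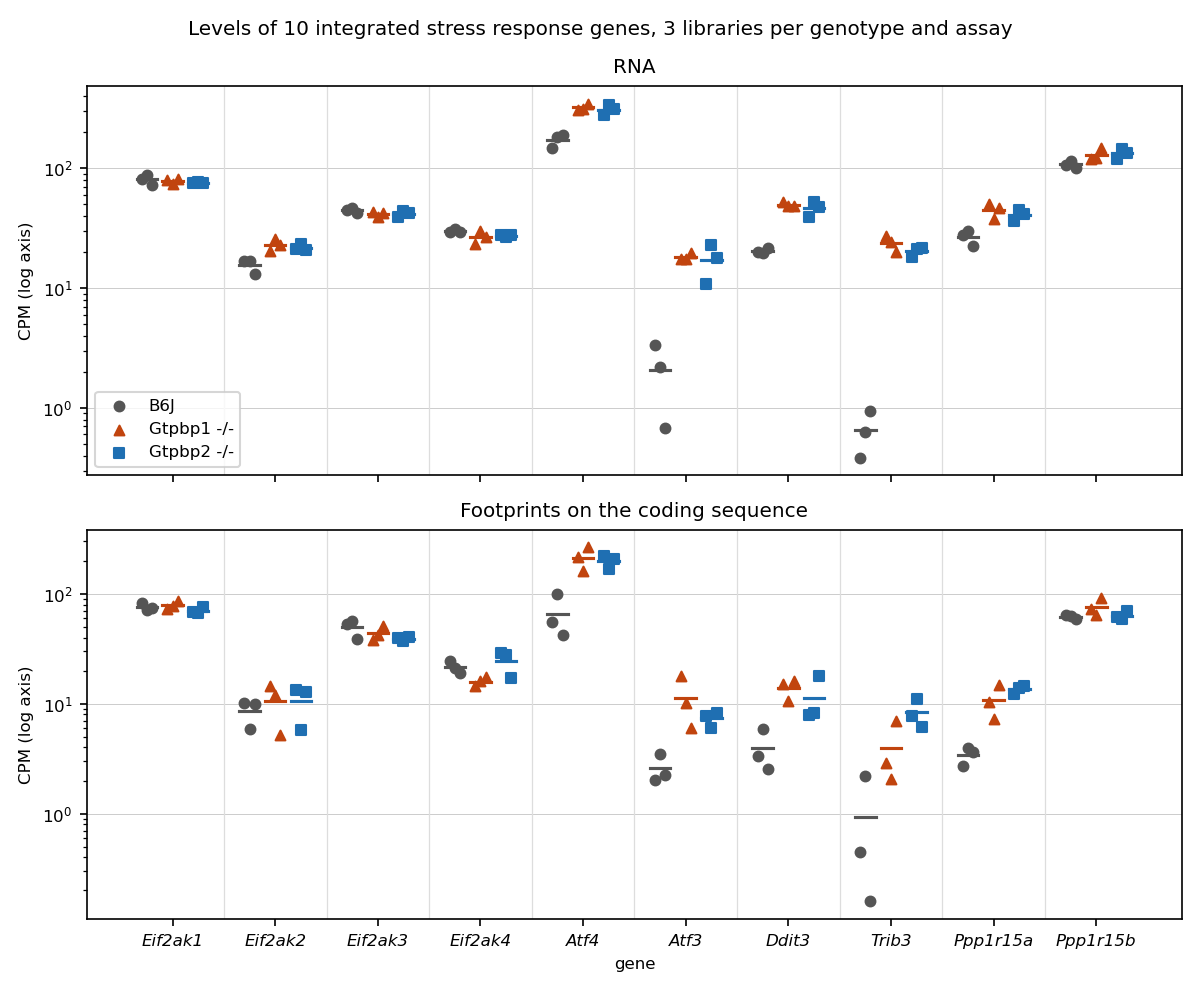
Level of each of the 10 genes in every library in CPM on a log axis, RNA in one panel and footprints in the other, with circles for B6J, triangles for *Gtpbp1* mutants, squares for *Gtpbp2* mutants and a horizontal line at each group mean. *Trib3* RNA lies between 0.384 and 0.934 CPM in B6J and between 18.2 and 27.3 in the mutants.

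Among the transcription factors, *Atf4* (ENSMUSG00000042406, chr15:80255184-80257541, GRCm38) encodes the main effector of the pathway, which is translated in spite of eIF2 phosphorylation. *Atf4* RNA stood at 148, 181 and 190.0 CPM in B6J, at 308, 314 and 346 in the *Gtpbp1* mutants and at 277, 336 and 312 in the *Gtpbp2* mutants. All 6 mutants lay above B6J, and the mutants overlapped with each other. *Atf4* RNA rose 1.86-fold in the *Gtpbp1* mutants, a log2 fold change of 0.90 (CI 0.69 to 1.11, adjusted p 5.20e-05), and 1.78-fold in the *Gtpbp2* mutants, 0.83 (CI 0.60 to 1.07, adjusted p 0.000914). Directly compared, the mutants differed by 0.06 (CI -0.14 to 0.27). Both RNA calls were kept in 14 of 14 alternatives.

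Footprints on *Atf4* were 55.0, 99.8 and 42.1 CPM in B6J, 215, 162 and 265 in the *Gtpbp1* mutants and 220, 168 and 207 in the *Gtpbp2* mutants. B6J replicate 2 was the highest of the controls and still below each mutant. Footprints rose 3.27-fold in the *Gtpbp1* mutants, 1.71 on the log2 scale (CI 1.06 to 2.36, adjusted p 0.0213), and 3.01-fold in the *Gtpbp2* mutants, 1.59 (CI 0.95 to 2.23, adjusted p 0.0184). The *Gtpbp1* call was lost without *Gtpbp1* mutant replicate 1 (0.107), without its replicate 3 (0.0615) or without B6J replicate 1 (0.156), in a range of adjusted p from 4.86e-06 to 0.156 over 12 alternatives. For the *Gtpbp2* mutants the call was lost without *Gtpbp2* mutant replicate 1 (0.0818), without its replicate 3 (0.0537) or without B6J replicate 1 (0.0766), in a range from 3.34e-07 to 0.0818. The TE change of *Atf4* was 0.82 (CI 0.06 to 1.57, adjusted p 0.534) and 0.77 (CI 0.06 to 1.48, adjusted p 0.382), so neither passed although both intervals lie above 0.

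*Atf3* (ENSMUSG00000026628) encodes a bZIP factor that ATF4 induces and that represses many of its targets. Its RNA stood at 3.35, 2.18 and 0.676 CPM in B6J, at 17.6, 17.3 and 19.5 in the *Gtpbp1* mutants and at 10.9, 22.9 and 17.9 in the *Gtpbp2* mutants. The mutants lay above B6J in 6 of 6 libraries, and the B6J libraries differed among themselves more than those of the *Gtpbp1* mutants. *Atf3* RNA rose 8.81-fold in the *Gtpbp1* mutants, 3.14 on the log2 scale (CI 1.81 to 4.47, adjusted p 0.0169), and 8.35-fold in the *Gtpbp2* mutants, 3.06 (CI 1.58 to 4.54, adjusted p 0.0356). The direct comparison gave 0.08 (CI -0.46 to 0.61). In the *Gtpbp1* mutants, the call was lost without *Gtpbp1* mutant replicate 3 (adjusted p 0.0533) and without B6J replicate 2 (0.062), in a range from 9.16e-07 to 0.062 over 14 alternatives. In the *Gtpbp2* mutants, it was lost without *Gtpbp2* mutant replicate 2 (0.071), replicate 3 (0.133) or B6J replicate 2 (0.0995) and with no filter (0.103), in a range from 0.000114 to 0.133.

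Footprints on *Atf3* were 2.01, 3.52 and 2.22 CPM in B6J, 18.0, 10.1 and 6.01 in the *Gtpbp1* mutants and 7.81, 6.05 and 8.22 in the *Gtpbp2* mutants. All mutant libraries lay above B6J, and *Gtpbp1* mutant replicate 1 stood highest. The log2 fold changes of 2.14 (CI 1.16 to 3.12, adjusted p 0.0523) and 1.51 (CI 0.65 to 2.38, adjusted p 0.0596) did not pass. The first passed in 6 of 12 alternatives: with DESeq2 (adjusted p 0.00173), upper-quartile scaling (0.0454), no filter (0.0124), all 9 libraries (0.0224), sex as a covariate (0.0449) and without *Gtpbp1* mutant replicate 3 (0.0173), in a range of 0.00173 to 0.249. The second passed in 2 of 12, with DESeq2 (0.0327) and no filter (0.0434), in a range of 0.0327 to 0.379. TE of *Atf3* was -0.99 (CI -2.49 to 0.52) and -1.52 (CI -2.99 to -0.06), with adjusted p of 0.713 and 0.397.

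*Ddit3* (ENSMUSG00000025408, chr10:127290774-127296288, GRCm38) encodes CHOP, a partner of C/EBP factors that acts with ATF4 and is known for promoting cell death in lasting stress. *Ddit3* RNA stood at 20.2, 19.6 and 21.4 CPM in B6J, at 52.5, 48.2 and 48.8 in the *Gtpbp1* mutants and at 39.0, 52.0 and 47.7 in the *Gtpbp2* mutants. The lowest mutant library, *Gtpbp2* mutant replicate 1, was well above the B6J range. It rose 2.44-fold in the *Gtpbp1* mutants, 1.29 on the log2 scale (CI 1.09 to 1.48, adjusted p 1.23e-06), and 2.27-fold in the *Gtpbp2* mutants, 1.18 (CI 0.93 to 1.43, adjusted p 0.000153). These calls were kept in 14 of 14 alternatives, and the direct comparison gave 0.11 (CI -0.13 to 0.34).

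Footprints on the *Ddit3* coding sequence were 3.36, 5.95 and 2.54 CPM in B6J, 15.1, 10.7 and 16.2 in the *Gtpbp1* mutants and 7.97, 8.25 and 17.9 in the *Gtpbp2* mutants. No mutant overlapped with B6J, and *Gtpbp2* mutant replicate 3 stood apart from replicates 1 and 2. The rise was 3.58-fold in the *Gtpbp1* mutants, 1.84 on the log2 scale (CI 1.04 to 2.64, adjusted p 0.04). The change in the *Gtpbp2* mutants, 1.56 (CI 0.66 to 2.46, adjusted p 0.0624), did not pass, and the direct comparison gave 0.26 (CI -0.47 to 0.99, adjusted p 0.812). The *Gtpbp1* call was lost without *Gtpbp1* mutant replicate 1 (0.146), its replicate 3 (0.0602), B6J replicate 1 (0.206) or B6J replicate 3 (0.0792), in a range of 0.000974 to 0.206 over 12 alternatives. The *Gtpbp2* change passed in 3 of 12, with DESeq2 (0.0223), with no filter (0.0192) and without B6J replicate 2 (0.0492), in a range of 0.0192 to 0.283. TE of *Ddit3* was 0.57 (CI -0.14 to 1.28) and 0.44 (CI -0.48 to 1.36), with adjusted p of 0.638 and 0.717.

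The *Ddit3* uORF, which hinders translation of the coding sequence behind it when eIF2 is not phosphorylated, has its own gene ID (ENSMUSG00000116429, chr10:127290829-127293753) with 102 nucleotides of coding sequence against 504 for CHOP. RNA counts under this ID were 0 in all 9 libraries, so RNA and TE were not tested for it. Footprints on the uORF were 5.15, 6.17 and 6.20 CPM in B6J, 23.9, 11.4 and 22.5 in the *Gtpbp1* mutants and 18.1, 13.2 and 16.6 in the *Gtpbp2* mutants. All 6 mutants lay above B6J. The rise was 3.28-fold in the *Gtpbp1* mutants, 1.71 on the log2 scale (CI 0.99 to 2.44, adjusted p 0.0332), and 2.72-fold in the *Gtpbp2* mutants, 1.44 (CI 0.84 to 2.05, adjusted p 0.012), with a direct difference of 0.25 (CI -0.38 to 0.89). In the *Gtpbp1* mutants the call was lost without *Gtpbp1* mutant replicate 1 (0.156) or 3 (0.0533) and without B6J replicate 1 (0.199), 2 (0.102) or 3 (0.0612), in a range of 0.000604 to 0.199 over 12 alternatives. This call was also lost with the replicate block (0.118). In the *Gtpbp2* mutants it was lost without *Gtpbp2* mutant replicate 1 (0.0913) or B6J replicate 1 (0.0565), in a range of 0.00104 to 0.268.

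The share of *Ddit3* footprints that lay on the uORF compares the uORF with the coding sequence within a library. In B6J it was 60.5% (Wilson 95% CI 44.7 to 74.4), 50.9% (38.1 to 63.6) and 70.9% (57.9 to 81.2). In the *Gtpbp1* mutants it was 61.3% (55.3 to 66.9), 51.6% (44.5 to 58.5) and 58.2% (51.8 to 64.4), and in the *Gtpbp2* mutants 69.5% (62.1 to 75.9), 61.5% (50.4 to 71.6) and 48.2% (43.0 to 53.4). The groups overlapped, with the highest share in B6J replicate 3 and the lowest in *Gtpbp2* mutant replicate 3. Group means were 60.8% ± 10 (SD, n = 3), 57.0% ± 4.95 and 59.7% ± 10.8, from 90 uORF and 58 coding footprints in B6J, 400 and 295 in the *Gtpbp1* mutants, and 336 and 266 in the *Gtpbp2* mutants. An exact permutation test, two-sided, gave p 0.7 for the *Gtpbp1* mutants and 0.8 for the *Gtpbp2* mutants against B6J, where 3 against 3 libraries cannot go below 0.1. The intervals cover counting error only. Per nucleotide, the uORF held 8.25 ± 3.51 times as many footprints as the coding sequence in B6J, 6.65 ± 1.29 times in the *Gtpbp1* mutants and 7.91 ± 3.32 times in the *Gtpbp2* mutants.

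*Trib3* (ENSMUSG00000032715, chr2:152337422-152344032, GRCm38) encodes a pseudokinase that ATF4 and CHOP induce and that restrains ATF4 in a feedback loop. Its RNA stood at 0.384, 0.626 and 0.934 CPM in B6J, at 27.3, 24.5 and 20.2 in the *Gtpbp1* mutants and at 18.2, 21.4 and 21.5 in the *Gtpbp2* mutants. B6J was low throughout, and the mutants lay in a band of their own. *Trib3* RNA rose 36.6-fold in the *Gtpbp1* mutants, 5.20 on the log2 scale (CI 4.64 to 5.75, adjusted p 1.88e-07), and 31.2-fold in the *Gtpbp2* mutants, 4.96 (CI 4.38 to 5.54, adjusted p 2.69e-06), the largest RNA changes among the 10 genes. The direct comparison gave 0.23 (CI -0.04 to 0.51). Both calls were kept in 14 of 14 alternatives.

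Footprints on *Trib3* were 0.448, 2.2 and 0.159 CPM in B6J, from 2, 10 and 1 counts, 2.88, 2.07 and 7.01 in the *Gtpbp1* mutants and 7.81, 11 and 6.19 in the *Gtpbp2* mutants. *Gtpbp1* mutant replicate 2 lay below B6J replicate 2, and the *Gtpbp2* mutants lay above B6J without overlap. Among the controls only B6J replicate 2 reached 5 counts, so *Trib3* passed the count filter through the mutants. Footprints rose 9.05-fold in the *Gtpbp2* mutants, 3.18 on the log2 scale (CI 1.81 to 4.54, adjusted p 0.0137). This change was also called with no filter beyond 1 count. The change in the *Gtpbp1* mutants was 2.12 (CI 0.41 to 3.83, adjusted p 0.261) and did not pass. The direct comparison gave -1.06 (CI -2.04 to -0.09, adjusted p 0.426). The *Gtpbp2* call was lost without *Gtpbp2* mutant replicate 1 (0.0736), its replicate 2 (0.0831) or B6J replicate 1 (0.0739), in a range from 9.01e-05 to 0.0831 over 12 alternatives. Its log2 fold change ranged from 2.60 to 5.50 over these, with 4.75 without B6J replicate 2 and 5.50 with sex as a covariate. The fit with sex sets the *Gtpbp2* mutants against B6J replicate 3 alone. Without B6J replicate 2, which held most of the control counts, the *Gtpbp1* log2 fold change was 3.71, the largest over 12 alternatives.

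TE of *Trib3* was -3.03 (CI -5.05 to -1.01, adjusted p 0.477) in the *Gtpbp1* mutants and -1.75 (CI -3.38 to -0.12, adjusted p 0.384) in the *Gtpbp2* mutants. Neither passed with edgeR. DESeq2 called the first (adjusted p 0.0304, in a range of 0.0304 to 0.83 over 18 alternatives), and without B6J footprint replicate 2 it was -1.45. The second was -0.18 without that library (adjusted p 0.971, in a range of 0.102 to 0.971). The direct comparison of TE was -1.29 (CI -2.26 to -0.32, adjusted p 0.34). Among the controls, only B6J replicate 2 reached the filter of 10 footprint counts. *Trib3* thus entered both TE comparisons with B6J through the mutants.

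*Ppp1r15a* (ENSMUSG00000040435, chr7:45522916-45526268, GRCm38) encodes GADD34, the inducible subunit that brings protein phosphatase 1 to eIF2 and so ends the response. *Ppp1r15a* RNA stood at 27.8, 29.9 and 22.4 CPM in B6J, at 50.4, 38.0 and 46.8 in the *Gtpbp1* mutants and at 36.5, 45.0 and 41.7 in the *Gtpbp2* mutants. Each of the 6 mutants lay above the highest B6J library. RNA rose 1.69-fold in the *Gtpbp1* mutants, 0.76 on the log2 scale (CI 0.48 to 1.03, adjusted p 0.00145), and 1.54-fold in the *Gtpbp2* mutants, 0.62 (CI 0.35 to 0.89, adjusted p 0.0102). The direct comparison gave 0.13 (CI -0.12 to 0.39), and both calls were kept in 14 of 14 alternatives.

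Footprints on *Ppp1r15a* were 2.69, 3.96 and 3.65 CPM in B6J, 10.4, 7.24 and 14.7 in the *Gtpbp1* mutants and 12.3, 14.0 and 14.5 in the *Gtpbp2* mutants. All mutants lay above B6J, and the *Gtpbp2* mutants lay closer together than the *Gtpbp1* mutants. They rose 3.91-fold in the *Gtpbp2* mutants, 1.97 on the log2 scale (CI 1.28 to 2.65, adjusted p 0.00429), a call kept in 11 of 12 alternatives, each omission of a library among them. The change in the *Gtpbp1* mutants was 1.63 (CI 0.82 to 2.44, adjusted p 0.0699) and did not pass with edgeR, and the direct comparison gave -0.35 (CI -0.98 to 0.28, adjusted p 0.696). It passed in 3 of 12 alternatives, with DESeq2 (adjusted p 0.0107), no filter (0.031) and all 9 libraries (0.029), in a range of 0.0107 to 0.266. TE of *Ppp1r15a* was 0.87 (CI 0.11 to 1.63, adjusted p 0.525) in the *Gtpbp1* mutants and 1.35 (CI 0.79 to 1.91, adjusted p 0.0939) in the *Gtpbp2* mutants. The latter passed with DESeq2 (adjusted p 0.00464) and without B6J footprint replicate 3 (0.0468), in a range of 0.00464 to 0.259 over 18 alternatives.

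*Ppp1r15b* encodes CReP, the subunit with the same task that is present without stress. Its RNA stood at 106, 116 and 100.4 CPM in B6J, at 120.2, 122 and 147 in the *Gtpbp1* mutants and at 119, 145 and 135 in the *Gtpbp2* mutants. The mutants lay above B6J in 6 of 6 libraries, by a small margin in the lowest of them. The log2 fold changes of 0.27 (CI 0.07 to 0.46, adjusted p 0.0664) and 0.31 (CI 0.11 to 0.50, adjusted p 0.0583) did not pass with edgeR. The first passed in 3 of 14 alternatives, with DESeq2 (0.0398), upper-quartile scaling (0.0251) and no filter (0.0162), in a range of 0.0162 to 0.259. The second passed in 6 of 14, among them these (0.0196, 0.0329 and 0.0149), all 9 libraries (0.0491) and without *Gtpbp2* mutant replicate 1 (0.0182), in a range of 0.0149 to 0.214. Footprints on *Ppp1r15b* overlapped between the groups, with log2 fold changes of 0.30 (CI -0.12 to 0.72) and 0.03 (CI -0.32 to 0.38). Mutant against mutant, it was -0.04 (CI -0.25 to 0.18) in RNA and 0.26 (CI -0.15 to 0.66) in footprints.

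TE of the kinases and of *Ppp1r15b* was not called in either mutant. In the *Gtpbp1* mutants it was 0.10 for *Eif2ak1* (CI -0.27 to 0.46), -0.26 for *Eif2ak2* (CI -1.13 to 0.61), -0.07 for *Eif2ak3* (CI -0.55 to 0.40), -0.25 for *Eif2ak4* (CI -0.71 to 0.21) and 0.03 for *Ppp1r15b* (CI -0.40 to 0.47). For the *Gtpbp2* mutants the values were -0.02 (CI -0.36 to 0.31), -0.14 (CI -0.91 to 0.63), -0.25 (CI -0.66 to 0.17), 0.30 (CI -0.22 to 0.81) and -0.27 (CI -0.61 to 0.07) in the same order. Directly compared, *Eif2ak4* TE was -0.56 (CI -1.10 to -0.01, adjusted p 0.44).

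With sex as a covariate, some RNA calls were lost while the log2 fold changes stayed near their size: *Atf3* in the *Gtpbp1* mutants at 3.15 (adjusted p 0.0565, in a range of 9.16e-07 to 0.062), and *Atf3* at 3.10 (0.1, in a range of 0.000114 to 0.133) and *Eif2ak2* at 0.54 (0.0812, in a range of 0.00649 to 0.146) in the *Gtpbp2* mutants. Footprint calls lost with this covariate in the *Gtpbp1* mutants were *Ddit3* at 2.01 (0.0666, in a range of 0.000974 to 0.206) and the uORF at 1.77 (0.0747, in a range of 0.000604 to 0.199). In footprints, the *Gtpbp2* mutants and B6J replicate 3 were female, and B6J replicates 1 and 2 were male. With sex in the model, the *Gtpbp2* footprint changes are thus measured against B6J replicate 3 alone, which held 1 *Trib3* count. Only effect sizes are given for that fit. They were 5.50 for *Trib3*, up from 3.18, 1.88 for *Ppp1r15a* and 1.36 for the uORF. TE was not tested with sex as a covariate.

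Levels of different genes were compared per length. For RNA this is the mean TPM, which divides by transcript length, of the 3 libraries. In B6J, *Atf4* stood highest at 181 ± 22.2 TPM (SD), followed by *Ddit3* at 49.9 ± 2.66, *Ppp1r15b* at 40.2 ± 1.09, *Eif2ak1* at 33.4 ± 3.09, *Eif2ak3* at 19.6 ± 2.09 and *Ppp1r15a* at 18.0 ± 2.82. Lower came *Eif2ak4* at 11.2 ± 0.785 TPM, *Eif2ak2* at 8.47 ± 0.717, *Atf3* at 1.89 ± 1.21 and *Trib3* at 0.519 ± 0.217. The neighbours *Eif2ak3* and *Ppp1r15a* did not differ beyond their spread. *Atf3* and *Trib3* overlapped too, at 0.642 and 0.743 TPM in B6J replicate 3. In the mutants *Trib3* reached 25.7 TPM (*Gtpbp1*) and 20.9 TPM (*Gtpbp2*), *Atf3* 20.1 and 20.5, *Ddit3* 150 and 133, and *Atf4* 382 and 361.

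Footprints per kilobase of coding sequence were divided by the mean TPM of the genotype and set against the median of all genes, at 0 on the log2 scale. This gives a relative level of footprints for the RNA present. Values by library vary with footprints only, since the RNA of each group is held at its mean. In B6J this level was low for 3 of the induced genes: -3.20 for *Ppp1r15a*, at percentile 1.02 of 13161 genes, -2.51 for *Ddit3*, at percentile 2.54, and -1.36 for *Atf4*, at percentile 13.2. By library, *Ppp1r15a* stood at -3.56, -3.0 and -3.11 in B6J, at -2.42, -2.94 and -1.92 in the *Gtpbp1* mutants and at -1.99, -1.80 and -1.76 in the *Gtpbp2* mutants. Each mutant value was above B6J, with *Gtpbp1* mutant replicate 2 at -2.94 close to B6J replicate 2 at -3.0. The spread of RNA between libraries is not part of this comparison. *Ppp1r15a* still stood at percentiles 4.60 and 6.25 in the mutants. *Atf4* stood at -1.62, -0.76 and -2.0 in B6J, at -0.61, -1.01 and -0.30 in the *Gtpbp1* mutants and at -0.46, -0.85 and -0.55 in the *Gtpbp2* mutants. Here B6J replicate 2 lay within the range of the mutants, so the groups overlapped. *Ddit3* was at -2.14 and -2.25 in the mutants, at percentiles 6.08 and 3.33.

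For *Trib3* the relative level was 0.93 in B6J, from libraries at -0.14, 2.16 and -1.63 with 10 footprints or fewer each, and -2.48 and -1.10 in the *Gtpbp1* and *Gtpbp2* mutants. The B6J value is therefore not precise at this depth. For *Atf3* it was 1.5 in B6J, 0.35 in the *Gtpbp1* mutants and -0.28 in the *Gtpbp2* mutants. In B6J, the *Gtpbp1* and the *Gtpbp2* mutants it was 0.46, 0.51 and 0.43 for *Eif2ak1* and -0.28, -0.29 and -0.56 for *Ppp1r15b*. The TPM in these levels was summed over all transcripts of a gene, noncoding ones included. In B6J these made up 38.1% of *Ppp1r15b* (Ppp1r15b-202) and 25.4% of *Ddit3* (the retained-intron Ddit3-202). Levels against coding transcripts alone were not computed. *Eif2ak4* had the lowest relative level of the kinases, at -1.30 in B6J, -1.53 in the *Gtpbp1* mutants and -0.95 in the *Gtpbp2* mutants.

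**Figure D3:**
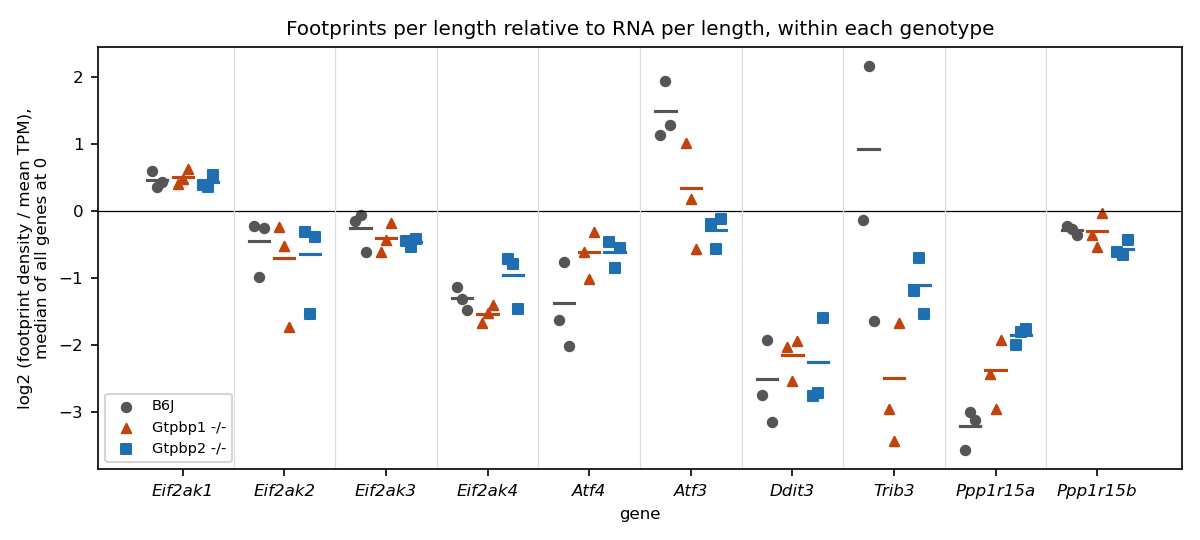
Relative level of footprints in each library, as log2 of footprint density over mean TPM with the median of all genes at 0, for the 10 genes, with circles for B6J, triangles for *Gtpbp1* mutants and squares for *Gtpbp2* mutants. *Ppp1r15a* lies between -3.56 and -3.0 in B6J and between -1.99 and -1.76 in the *Gtpbp2* mutants.

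The genes differ in the leaders of their most abundant coding transcripts. *Atf4* has a leader of 594 nucleotides with 3 upstream ATG triplets, *Ppp1r15b* one of 604 with 3, *Ppp1r15a* one of 283 with 3, *Eif2ak3* one of 211 with 3 and *Ddit3* one of 186 with 2. *Atf3* (252 nucleotides) and *Eif2ak2* (190) have 1 upstream ATG each. *Trib3* (176), *Eif2ak1* (103) and *Eif2ak4* (91) have 0, as do 48.4% of 16348 genes, whose median leader is 163 nucleotides with 1 upstream ATG. AGA codons, which the tRNA of *n-Tr20* decodes, made up 1 of 349 codons in *Atf4* and 1 of 168 in *Ddit3*. *Eif2ak1* and *Eif2ak2* had the most per length, 25.9 and 27.2 per 1000 codons, beside a median of 10.4 over all genes. In between were *Ppp1r15b* with 18.7, *Atf3* with 16.6, *Eif2ak4* with 13.4, *Ppp1r15a* with 12.2, *Trib3* with 11.3 and *Eif2ak3* with 7.18.

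Promoter sequences from RefSeq (GRCm38.p6), from 250 bases before to 50 after each gene start, were found for 9 of the 10 genes and searched on both strands for 3 motifs, since several of the genes moved together. The composite C/EBP-ATF element TGATGNAAN is held by 3.95% of all 32851 promoters, the cAMP response element TGACGTCA by 1.79% and the core of the interferon response element GAAANNGAA by 8.56%. The first was found in *Atf3* and *Trib3*, the second in *Ppp1r15a*, and the third in *Eif2ak2*, as a pair of overlapping matches, and in *Ppp1r15a*. A match is a description of letters only. All 4 genes lie on the minus strand, the sequences are read on that strand, capitals mark the match, and in *Atf3* and *Trib3* the motif reads on the opposite strand. They lie at chr1:191183426-191183454 (position -111 from the gene start), chr2:152344029-152344057 (position 13), chr7:45526263-45526290 (position -12) and chr17:78882536-78882564 (position 18).
*Atf3*: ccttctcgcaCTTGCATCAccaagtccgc
*Trib3*: ttagctcaggTTTACATCAgccgggcggg
*Ppp1r15a*: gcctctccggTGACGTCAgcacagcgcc
*Eif2ak2*: agtccgccggGAAAACGAAacagaagaga

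Transcripts were compared within genes, as TPM. The *Ddit3* transcript Ddit3-201 had a mean of 34.3 TPM in B6J and of 98.1 and 88.1 in the *Gtpbp1* and *Gtpbp2* mutants, Ddit3-203 of 2.94, 21.4 and 17.5, and the retained-intron transcript Ddit3-202 of 12.6, 30.0 and 27.7. The share of Ddit3-202 was 25.4% in B6J and 20.1% and 20.9% in the mutants. *Trib3* was Trib3-201 alone in B6J, with Trib3-203, a retained-intron transcript, at 4.49 and 3.05 TPM in the mutants. *Atf4* was 98.8% Atf4-201 in B6J. For *Ppp1r15b*, the coding transcript Ppp1r15b-201 stood at 24.96, 32.8 and 33.6 TPM and the noncoding Ppp1r15b-202 at 15.3, 21.6 and 22.1. None of these transcript levels was tested.

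The 3 protein-coding genes whose RNA followed each called gene most closely over the 9 RNA libraries were listed by Pearson r among 14189 genes, as a description, since the libraries share the genotype difference. For *Atf4* they were *Cdkn1a*, *Fbln5* and *Kcns2* (r 0.994, 0.994 and 0.994, n = 9). For *Trib3* they were *C4b*, *Shmt2* and *Trim66* (0.993, 0.992 and 0.992), for *Ddit3* *C1qb*, *Ly86* and *Yars* (0.997, 0.997 and 0.994), and for *Atf3* *Sh3bp2*, *Capg* and *Ccnd2* (0.988, 0.987 and 0.987). *Ppp1r15a* was followed by *Synj2*, *Plek* and *Tbc1d20* (0.994, 0.984 and 0.979). *Eif2ak2* was followed by *Parp9*, *Lipt1* and *Ddx58* (0.992, 0.990 and 0.980).

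Of the genes around the pathway, 89 in 9 lists were set beside these 10, and 52 were called in RNA in the *Gtpbp1* mutants and 43 in the *Gtpbp2* mutants, where 13.8% and 8.63% of all genes were called in either direction. Of 24 target genes of ATF4 and CHOP, 22 were called higher in the *Gtpbp1* mutants and 21 in the *Gtpbp2* mutants, with medians of 2.06 and 1.98, and 0 were lower (0 at an unadjusted p under 0.05, 0 by DESeq2). By size in the *Gtpbp1* mutants, the largest changes were in *Gdf15* (6.73 and 6.64), *Fgf21* (5.22 and 5.40), *Slc7a3* (4.73 and 4.76) and *Stc2* (4.55 and 4.32). In footprints, 16 and 18 of the 24 were called higher, beside 0.573% and 1.28% of all genes, with medians of 1.65 and 1.5. Their median TE was -0.25 and -0.40, beside 0.03 and 0.03 over all genes. For TE, edgeR called 0 of 23 tested in either mutant. At an unadjusted p under 0.05, 3 and 7 were lower and 0 higher, among 1170 and 1554 of all genes in either direction. DESeq2 called 1 and 2 lower, among 26 and 91 of all genes.

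Of 14 bZIP factors, 5 were higher and 3 lower in the *Gtpbp1* mutants, and 4 higher and 1 lower in the *Gtpbp2* mutants, beside 7.93% and 5.02% of all genes called lower. *Atf5* (1.85 and 1.91), *Cebpb* (1.53 and 1.80) and *Cebpg* (1.29 and 1.20) rose in both. *Jun* fell in both (-0.87 and -0.86). *Jund* fell by 1.21 in the *Gtpbp1* mutants and was -0.85 (adjusted p 0.254) in the *Gtpbp2* mutants, with a direct difference of -0.36 (adjusted p 1.00). Of 7 other genes known for control by uORFs, 3 rose in both mutants, *Slc7a1* (2.07 and 2.00), *Atf5* and *Eprs* (0.99 and 0.83), and 0 were called lower (3 and 1 at an unadjusted p under 0.05, 1 and 0 by DESeq2). *Atf5*, which is controlled by uORFs as *Atf4* is, had footprint changes of 2.94 and 2.85 and TE of 1.09 and 0.96 (adjusted p 0.488 and 0.238).

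Among eIF2, eIF2B and eIF5 subunits, 2 of 10 were higher in the *Gtpbp1* mutants, *Eif2s2* (0.89) and *Eif5* (0.38), and 1 in the *Gtpbp2* mutants, *Eif2s2* (0.75), with *Eif5* at 0.28 (adjusted p 0.0539) and a direct difference of 0.10 (adjusted p 1.00). With DESeq2 and with upper-quartile scaling, 2 were called higher in the *Gtpbp2* mutants. Of 13 modulators of the kinases, 1 was higher and 1 lower in the *Gtpbp1* mutants and 1 higher in the *Gtpbp2* mutants, where the shares over all genes are those above. *Impact*, whose product inhibits GCN2, rose in both (0.39 and 0.58). *Tarbp2* fell by 0.48 in the *Gtpbp1* mutants and was -0.36 (adjusted p 0.118) in the *Gtpbp2* mutants, with a direct difference of -0.12 (adjusted p 1.00). Of the 3 catalytic subunits of protein phosphatase 1, which GADD34 and CReP bind, *Ppp1cc* fell in both (-0.76 and -0.84). *Ppp1ca* fell by 0.25 in the *Gtpbp1* mutants and was -0.23 (adjusted p 0.083) in the *Gtpbp2* mutants, with a direct difference of -0.02 (adjusted p 1.00), and with upper-quartile scaling 1 of the 3 was called in the *Gtpbp1* mutants. With DESeq2, 2 of the 3 were called lower in each mutant. Of 3 paralogs of *Trib3* and *Atf3*, *Jdp2* rose in both (0.61 and 0.63), and *Trib2* fell by 0.32 in the *Gtpbp1* mutants, a call lost with upper-quartile scaling, against -0.20 (adjusted p 0.153) and a direct difference of -0.11 (adjusted p 1.00).

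Beside *Eif2ak2*, all 10 interferon-stimulated genes of a list were called higher in RNA in both mutants, with medians of 1.88 and 1.56, among them *Mx1* (2.82 and 2.46), *Oasl2* (2.2 and 2.07), *Rsad2* (2.12 and 1.77) and *Irf7* (2.12 and 1.65). In footprints, of 9 tested, the list had medians of 0.82 and 1.01. *Bst2* alone was called in the *Gtpbp1* mutants (4 at an unadjusted p under 0.05, 2 by DESeq2) and 0 were called in the *Gtpbp2* mutants by edgeR (3 at an unadjusted p under 0.05, 0 by DESeq2). For *Bst2* the footprint change was 1.17 (adjusted p 0.04) and 0.33 (adjusted p 0.632), with a direct difference of 0.82 (adjusted p 0.357). Of 8 immediate early genes, which share induction with *Atf3*, *Egr1* rose in both (0.98 and 1.10). *Ier2* rose by 0.62 in the *Gtpbp1* mutants and was 0.56 (adjusted p 0.146) in the *Gtpbp2* mutants, with a direct difference of 0.06 (adjusted p 1.00). By edgeR 2 and 1 of the 8 were called higher, beside 5.90% and 3.61% of all genes. With DESeq2 the counts were 4 and 3, and 5 and 4 were higher at an unadjusted p under 0.05. The medians of this list were 0.69 and 0.96.

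Marker genes of cell types were read in the same libraries, and in whole tissue, fewer cells of a type and less RNA per cell cannot be told apart. All 5 granule neuron markers were called lower in both mutants, *Gabra6* the most (-1.08 and -1.02). Their summed level was 3693, 3956 and 3824 CPM in B6J, 2282, 2300 and 2658 in the *Gtpbp1* mutants and 2407, 2623 and 2332 in the *Gtpbp2* mutants, without overlap, with *Cbln3* the most abundant. With upper-quartile scaling 4 of the 5 were called in the *Gtpbp2* mutants. Their footprints summed to 1815, 3139 and 2379 CPM in B6J, 1880, 1230.5 and 1680 in the *Gtpbp1* mutants, which overlapped with B6J, and 1186, 918 and 1080 in the *Gtpbp2* mutants, which did not. In footprints 0 of 5 were called in the *Gtpbp1* mutants by edgeR (3 lower at an unadjusted p under 0.05, 0 by DESeq2) and 3 lower in the *Gtpbp2* mutants, with a direct difference of 0.61 for *Gabra6* (adjusted p 0.367). Over all genes, 0.172% and 1.67% were called lower in footprints in the *Gtpbp1* and *Gtpbp2* mutants. All 4 microglia markers were called higher in the *Gtpbp1* mutants and 3 in the *Gtpbp2* mutants, *C1qa* the most (1.37 and 1.32), where *Aif1* was 1.06 (adjusted p 0.121, direct difference 0.23, adjusted p 1.00). Their sum was 54.7, 58.1 and 56.2 CPM in B6J, 123, 108 and 104 in the *Gtpbp1* mutants and 107, 107 and 112 in the *Gtpbp2* mutants, with *Csf1r* the most abundant. In footprints it was 120.4, 148 and 117 CPM in B6J, 311, 173 and 352 in the *Gtpbp1* mutants and 184, 176 and 248 in the *Gtpbp2* mutants, without overlap with B6J, and *C1qa* was called higher in both (1.5 and 1.31).

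Of 4 Purkinje cell markers, 2 were lower in the *Gtpbp1* mutants and 3 in the *Gtpbp2* mutants, with *Calb1* at -0.20 (adjusted p 0.206) and -0.37 and a direct difference of 0.17 (adjusted p 1.00). Their summed RNA was 4007, 4257 and 3861 CPM in B6J, 3168, 2933 and 3670.3 in the *Gtpbp1* mutants and 3018, 3289 and 2745 in the *Gtpbp2* mutants, with *Car8* the most abundant, and upper-quartile scaling gave 1 and 2 lower. In footprints the sum was 7036, 4347 and 9244 CPM in B6J, 8263, 9583 and 5432 in the *Gtpbp1* mutants and 10118, 9678 and 9375 in the *Gtpbp2* mutants, the last above B6J without overlap. By edgeR 0 of the 4 were called in footprints in either mutant (1 and 1 higher at an unadjusted p under 0.05, 0 and 1 by DESeq2). Of 4 astrocyte and Bergmann glia markers, *Gfap* rose (1.35 and 1.22) and *Slc1a3*, the most abundant, fell (-0.45 and -0.44), and the sum was 3203, 3422 and 2875 CPM in B6J, 3027, 2595 and 3073 in the *Gtpbp1* mutants and 2678, 3029 and 2669 in the *Gtpbp2* mutants. Of the oligodendrocyte markers, *Mbp* was -0.49 (adjusted p 0.0171) in the *Gtpbp1* mutants and -0.05 (adjusted p 0.873) in the *Gtpbp2* mutants, with a direct difference of -0.43 (adjusted p 1.00). *Mog* was -0.50 (adjusted p 0.0100) and -0.03 (adjusted p 0.921), with a direct difference of -0.47 (adjusted p 0.831).

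Of the endothelial markers, *Cldn5*, the most abundant, rose in both mutants (0.59 and 0.74), and *Pecam1* was 0.35 (adjusted p 0.064) and 0.55 (adjusted p 0.0366), with a direct difference of -0.20 (adjusted p 1.00). Their sum was 43.2, 42.2 and 44.1 CPM in B6J, 55.5, 64.6 and 60.1 in the *Gtpbp1* mutants and 56.0, 71.0 and 76.4 in the *Gtpbp2* mutants. In footprints it was 105, 74.9 and 121 CPM in B6J, 292, 199 and 226 in the *Gtpbp1* mutants and 265, 207 and 229 in the *Gtpbp2* mutants, without overlap with B6J, and *Cldn5* was called in both (1.42 and 1.41). Erythroid markers summed to 1402, 775 and 1104 CPM in B6J, 1646, 1443 and 1819 in the *Gtpbp1* mutants and 327, 1535 and 813 in the *Gtpbp2* mutants, with *Hbb-bs* the most abundant and 1 of 5 called, *Alas2* (0.92 and 0.04, direct difference 0.88, adjusted p 1.00). Bone and skeletal muscle markers were not called in RNA (0 of 4 tested, 0 at an unadjusted p under 0.05, 0 by DESeq2), with sums of 107, 114 and 81.5 CPM in B6J, 103, 139 and 109 in the *Gtpbp1* mutants and 80.5, 129 and 105 in the *Gtpbp2* mutants and *Col1a2* the most abundant. In footprints they summed to 273, 665 and 879 CPM in B6J, 1567, 1366 and 2634 in the *Gtpbp1* mutants and 602, 971 and 473 in the *Gtpbp2* mutants, with *Col1a1* the most abundant and the *Gtpbp1* mutants above B6J without overlap. By edgeR 0 of 5 were called there in the *Gtpbp1* mutants (4 higher at an unadjusted p under 0.05, 2 by DESeq2), 0 of 3 tested in the *Gtpbp2* mutants (1 lower, 1 by DESeq2) and 0 of 5 between the mutants (5 higher in the *Gtpbp1* mutants, 4 by DESeq2). No marker was at 0 in all 9 libraries of an assay, *Myh4* was at 0 in a library of both assays and *Myh1* in footprints alone. The part of these cell types in the levels of the 10 genes was not tested.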

How the data were processed

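The authors quantified RNA reads with kallisto (0.42.4) on Gencode M20 transcripts and deposited an estimated count (expected count), a TPM and an effective length for each transcript. From the profiling reads the authors removed ribosomal RNA reads with Bowtie2 (2.2.3), aligned with HISAT2 (2.1.0) and deposited a count per gene from featureCounts, over coding sequence.

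Estimated counts were summed per gene and rounded. Pairs of genotypes were compared in edgeR (4.0.16, robust quasi-likelihood fit, TMM) with limma 3.58.1 and R 4.3.3, over genes that reached 5 counts in 3 or more of 6 libraries, and p was adjusted over all of them by Benjamini and Hochberg. Features of leaders and codons are those of the coding transcript with the highest mean TPM. TE used 12 libraries in a single model and genes that reached 10 counts in 3 or more of 6 libraries in both assays, without symbols starting with Hist. Coding lengths came from Gencode M21. Python 3.11.15 with numpy 2.4.6, pandas 2.3.3, scipy 1.17.1 and matplotlib 3.10.9 was used for the rest. The tests were tested on simulated data, modelled on genes with at least 10 counts in all 9 libraries of an assay. Genes with fewer counts, such as *Trib3* and *Atf3* in footprints, were outside this simulation.

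The 10 genes, the lists and the markers were chosen with earlier results of these data known. All 10 genes are named in the comparisons with B6J, and of each list up to 4 genes with the largest RNA change among those called in the *Gtpbp1* mutants and up to 2 more called in the *Gtpbp2* mutants alone, or the gene with the highest TPM in B6J where none was called. *Bst2* and *Jun* were named after their values were seen. Genes most like a called gene were ranked by Pearson r of log2(CPM + 0.5), for genes with a mean CPM of at least 1.

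Alternatives for RNA and footprints were DESeq2 (1.42.0), upper-quartile scaling, no filter beyond 1 count, all 9 libraries in a single model, the replicate number as a block and sex as a covariate, and for RNA also an effective length offset and protein-coding transcripts alone. Those for TE were DESeq2, scaling by assay, a lower filter (mean count 1), all 18 libraries, the replicate block and protein-coding transcripts alone. Each library was also left out. The lists were run with DESeq2, upper-quartile scaling and each omission. Replicate numbers were checked for pairing: correlations of libraries with the same number, after removal of genotype means, were between -0.162 and 0.24 in RNA, -0.285 and 0.13 in footprints and -0.132 and 0.143 between assays, so numbers do not pair samples.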

Additional observations from a re-analysis of the deposited data

How the results depend on the processing

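Of 1356 values of the 10 genes and the *Ddit3* uORF under alternatives, 1236 kept their direction and their side of the threshold, 46 lost a call, 26 gained a call and 48 changed sign. The number of the 10 genes called in RNA stayed between 5 and 7 in the *Gtpbp1* mutants and between 4 and 7 in the *Gtpbp2* mutants over 14 alternatives each. The numbers called from the lists, 52 and 43, ranged from 43 to 58 and from 35 to 50 over 8 alternatives each, DESeq2, upper-quartile scaling and 6 omissions. In the direct comparisons 0 were called under every alternative run, of 14 in RNA, 12 in footprints and 18 in TE.

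In footprints, the *Gtpbp1* count of 2 was 4 with DESeq2, 4 without a filter and 4 with all 9 libraries, and from 0 to 2 with 1 library left out. The *Gtpbp2* count of 3 was 5 with DESeq2, 5 without a filter, and from 1 to 4 with 1 library left out. The TE counts of 0 were 1 and 1 with DESeq2, and from 0 to 1 in the *Gtpbp2* mutants with 1 library left out. With the replicate block the *Gtpbp1* footprint count was 0, with *Atf4* at 1.78 and *Ddit3* at 1.87, and *Atf3* RNA in the *Gtpbp2* mutants was not called at 3.19 (adjusted p 0.132, in a range of 0.000114 to 0.133). The *Ddit3* uORF call in the *Gtpbp1* mutants was lost with the replicate block too, at 1.66 (adjusted p 0.118, in a range of 0.000604 to 0.199). *Ppp1r15b* RNA in the *Gtpbp2* mutants passed with the replicate block (0.0377, in a range of 0.0149 to 0.214). The replicate numbers do not pair samples. The cause was not tested for any of these changes.

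None of the values that changed sign passed the threshold in any setting. By setting, they were 0.0049 for *Eif2ak1* RNA in the *Gtpbp1* mutants with upper-quartile scaling, -0.0008 for *Ppp1r15b* TE in the *Gtpbp1* mutants with all 18 libraries, and 0.0115 for *Eif2ak3* footprints in the *Gtpbp2* mutants with sex as a covariate. In the direct RNA comparison they were 0.0268 (*Eif2ak3*), -0.0117 (*Trib3*) and 0.14 (*Ppp1r15b*) with sex as a covariate, and 0.0507 (*Eif2ak3*) and -0.0398 (*Atf3*) with the length offset.

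With 1 library left out, ranges across 0 in the *Gtpbp1* mutants were -0.12 to 0.0108 (*Eif2ak1* RNA), -0.0169 to 0.11 (*Eif2ak1* footprints), -0.0017 to 0.16 (*Eif2ak1* TE), -0.56 to 0.0205 (*Eif2ak2* TE), -0.26 to 0.0113 (*Eif2ak3* TE) and -0.16 to 0.13 (*Ppp1r15b* TE). In the *Gtpbp2* mutants they were -0.0367 to 0.0843 (*Ppp1r15b* footprints), -0.13 to 0.0365 (*Eif2ak1* TE), -0.38 to 0.0655 (*Eif2ak2* TE) and -0.16 to 0.82 (*Ddit3* TE). In the direct RNA comparison they were -0.0116 to 0.15 (*Eif2ak2*), -0.0515 to 0.0382 (*Eif2ak3*), -0.13 to 0.0365 (*Eif2ak4*), -0.0064 to 0.13 (*Atf4*), -0.17 to 0.34 (*Atf3*), -0.0023 to 0.20 (*Ddit3*) and -0.14 to 0.0301 (*Ppp1r15b*). In footprints they were -0.32 to 0.28 (*Eif2ak2*) and -0.0761 to 0.28 (*Atf4*), and in TE -0.40 to 0.17 (*Eif2ak2*), -0.15 to 0.21 (*Atf4*) and -0.0940 to 0.68 (*Ddit3*).

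Footprint depth, from 3630823 to 10442573 counts per library, limits what can be said of genes with few footprints: *Trib3* in B6J rests on 2, 10 and 1 counts, and its TE on the same. The number of mice limits all tests to 3 against 3, and the exact test of the uORF share cannot go below 0.1. Sex is not balanced between the groups.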
